A study of Homo sapiens with 4 samples.

Results

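Subtelomeric H3K9me3 regions of BJ-HELT cells were taken from the deposited list of called regions by position alone. A region was counted when its midpoint lay in the first or last 5 Mb (hg19) of one of 19 autosomes. The autosomes 8, 13 and 19 were not used, nor were the first 5 Mb of the acrocentric chromosomes 14, 15, 21 and 22, where the list held 0 regions. This left 34 chromosome ends, 15 of short arms (p) and 19 of long arms (q), with 434 regions out of 5211 in the whole list (8.33%, 95% Wilson interval 7.61 to 9.11%). The other 2272 regions of the same 19 autosomes are called the inner part. BJ-HELT is an established line of human foreskin fibroblasts immortalized with hTERT, the catalytic subunit of telomerase, and the early region of SV40. Cells at passage 10 to 11 gave 2 libraries of chromatin precipitated with an H3K9me3 antibody and 2 libraries of input DNA. There is 1 list for all libraries, with no values per library, so the values below have no replicate error, no test between groups of samples was possible, and differences are given as descriptions. The number attached to each region is read as its count of ChIP reads, and counts divided by length in kb are called density. Intervals cover counting error only and treat regions as independent. Many regions lie in clusters, so the intervals may be too narrow.

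Trimethylation of lysine 9 on histone H3 marks constitutive heterochromatin. It is laid down by methyltransferases such as SUV39H1, SUV39H2 and SETDB1 and is bound by HP1 proteins, which compact the chromatin. Subtelomeres, the stretches next to the telomeric repeats, are a patchwork of duplicated segments and tandem repeats that several chromosome ends share, and genes placed there can be silenced by the neighbouring heterochromatin. The tips of 4q and 10q carry D4Z4, a macrosatellite whose unit holds the DUX4 gene. Loss of repressive chromatin at the chromosome 4 copy is known from facioscapulohumeral muscular dystrophy.

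H3K9me3 regions were more frequent along the sequence at the chromosome ends than further in. The 34 windows made up 6.69% of the length of the 19 autosomes and held 16% of their regions (434 of 2706, 95% Wilson interval 14.7 to 17.5%). That length leaves out the unused first 5 Mb of the acrocentric chromosomes. There were 2.55 regions per Mb in the windows and 0.96 per Mb in the inner part, a ratio of 2.66. Regions covered 1.06% of the subtelomeric sequence (1.81 Mb in all) and 0.58% of the inner sequence, a ratio of 1.84. By counts the difference was much smaller. Regions held 88252 counts on 170 Mb of windows and 1139989 counts on 2370.3 Mb of the inner part. Of the subtelomeric counts, 12755 were those of 1 region of 18p, and 103161 of the inner counts were those of 1 inner region. Without the 18p window, 75193 counts on 165 Mb remained, fewer per Mb than in the inner part with all its regions. Subtelomeric regions held 3.96% of the count of the whole list, less than their 8.33% of its regions. Against the adjoining sequence, 5 to 10 Mb from each end, the ratio was 1.8 for the number (241 regions there) and 1.78 for covered length. The rate was above that of the inner part of the same chromosome at 26 ends and below it at 8, which were 1q, 3p, 9p, 10p, 16p, 16q, 17q and 20p. Compared with the adjoining 5 Mb, 23 ends had more regions, 8 had fewer and 3 had the same number. Unassembled sequence, such as that of the acrocentric short arms beyond their first 5 Mb, counts towards the length of the inner part, and its extent was not computed. The members closest to the 5 Mb limit were a 5.2 kb region of 10q at 4.97 Mb from the end (135 counts) and a 3.8 kb region of 20q, also at 4.97 Mb (104 counts). The nearest ones left out were a 5 kb region of 6q at 5.03 Mb (119 counts) and a 1.4 kb region of 20q at 5.04 Mb (58 counts).

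The chromosome ends differed widely among themselves. The end of 20q had 73 regions and that of 10q had 55, followed by 6p with 25 and 1p and 4q with 20 each. These 5 ends held 44.5% of all subtelomeric regions (95% Wilson interval 39.9 to 49.2%). The median end had 8 regions, with quartiles of 6 and 15.8. Of the other ends, 8 had between 12 and 17 regions (22q and 9q with 17 each, 14q and 5p with 16, 16q and 6q with 15, 21q with 14 and 18q with 12) and 20 had between 2 and 10. The lowest of these were 1q with 2 regions and 3p, 10p and 17q with 3 each. The end of 9p had 0. As the calling threshold is unknown, that end shows no call and not an absence of the mark. Long-arm ends had 3.27 regions per Mb and short-arm ends 1.64. Long-arm ends held 311 of the 434 regions, 128 of them on 10q and 20q. Without those 2 ends the rate over the 32 remaining windows was 1.91 per Mb, 2.00 times that of the inner part.

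**Figure D1:**
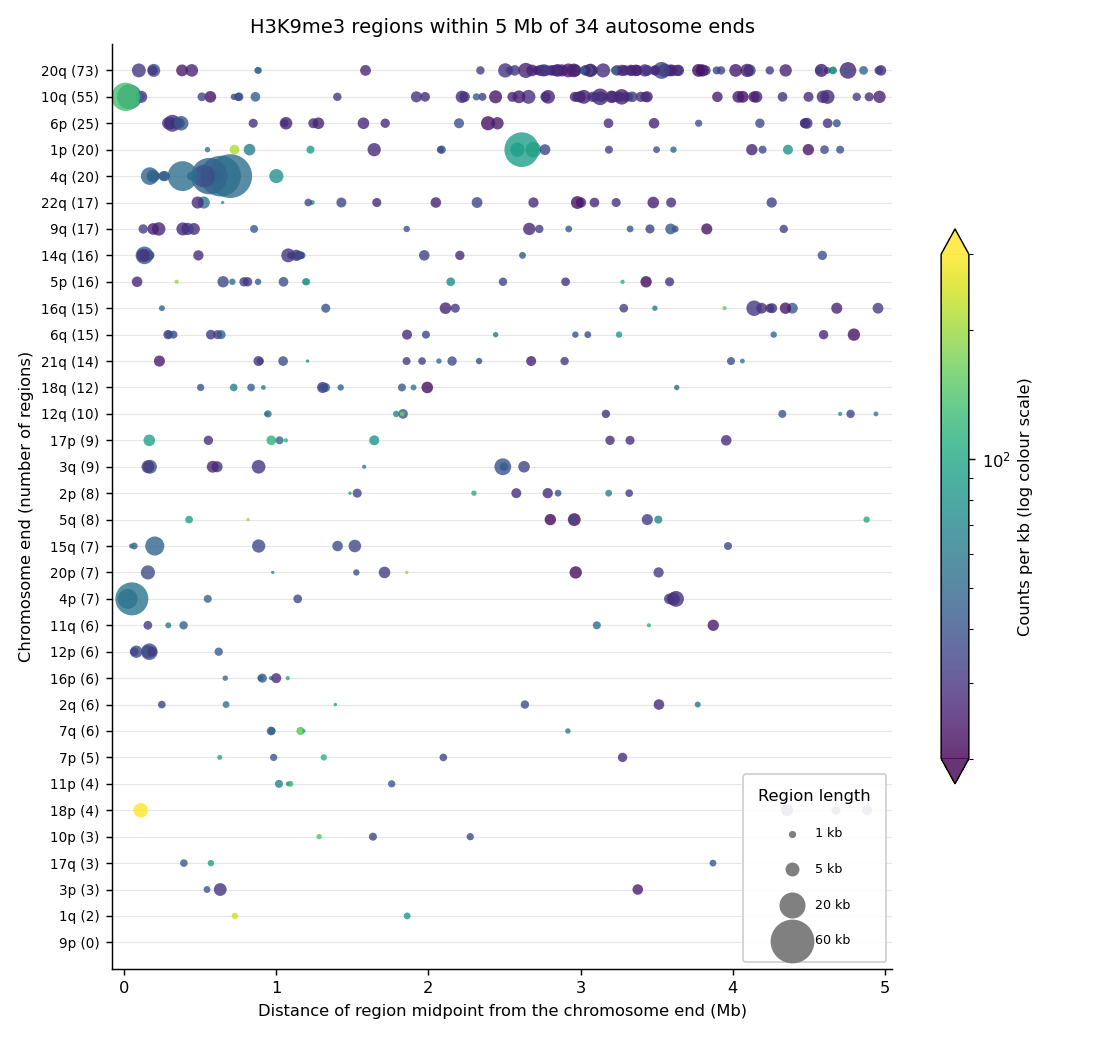
Each row is a chromosome end with its number of regions, and each disc is an H3K9me3 region at the distance of its midpoint from the end (Mb), with area proportional to length (kb) and colour for counts per kb on a log scale. Large discs sit in the outermost Mb of 4q, 4p and 10q, long runs of small discs lie further in on 20q and 10q, and 9p is empty.

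**Figure D2:**
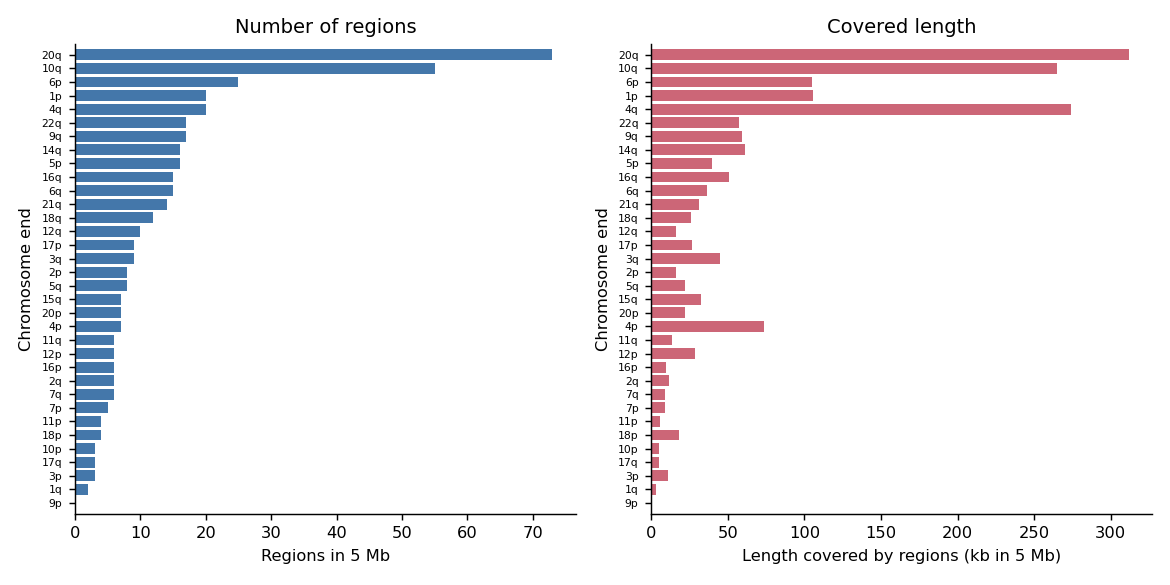
Bars give the number of regions (left) and the length they cover in kb (right) in the 5 Mb window of each chromosome end, both from 0 and in the same order. The end of 4q has 20 regions but covers 274.2 kb, close to the 311.6 kb of 20q with 73 regions.

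By covered length the order was different, and 4q moved up beside 20q and 10q. Regions covered 311.6 kb (6.23%) of the 20q window, 274.2 kb (5.48%) of 4q and 264.6 kb (5.29%) of 10q. Next came 105.8 kb at 1p, 104.8 kb at 6p and 73.6 kb at 4p, where 7 regions sufficed. The median over the 34 ends was 26.2 kb. The 4q end also stood furthest above its own chromosome, with 4 regions per Mb against 0.20 in the inner part of chromosome 4, a ratio of 20.1. For 10q this ratio was 7.93. For 20q it was 2.24, with 6.51 regions per Mb in the inner part of chromosome 20. The median over the 33 ends with a region was 2.27.

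The outermost Mb was the most heavily marked part of the windows. It held 129 of the 434 regions (29.7%, 95% Wilson interval 25.6 to 34.2%), 40.7% of their length and 55.4% of their count. Of its 48911 counts, 12755 were those of 1 region of 18p. The rate was 3.79 regions per Mb in the first Mb and 2.24 per Mb between 1 and 5 Mb, and the covered share was 2.16% and 0.79%. Mb by Mb from the end, the covered share was 2.16, 0.53, 0.98, 1.01 and 0.64%. The rise between 2 and 4 Mb came with 20q and 10q. Without these 2 ends the values were 1.98, 0.52, 0.59, 0.41 and 0.35%, and beyond 5 Mb they stayed between 0.26 and 0.71% out to 20 Mb. Much of the covered length of the first Mb was that of 3 ends. The first Mb of 4p, 4q and 10q held 32 regions with 392.8 kb, or 53.4% of the length covered in the first Mb of all ends. Over the other 31 ends, 1.11% of the first Mb and 0.69% of the next 4 Mb were covered, and the rates were 3.13 and 2.06 regions per Mb. A region lay within 1 Mb of the end at 30 of 34 ends and within 0.5 Mb at 22. The distance from the end to the nearest region midpoint had a median of 248 kb over 33 ends, from 9.50 kb at 10q to 1485 kb at 2p. Ends are rounded to 0.1 Mb, so short distances on long arms are approximate, and 1 region (10q) reached past the rounded end.

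**Figure D3:**
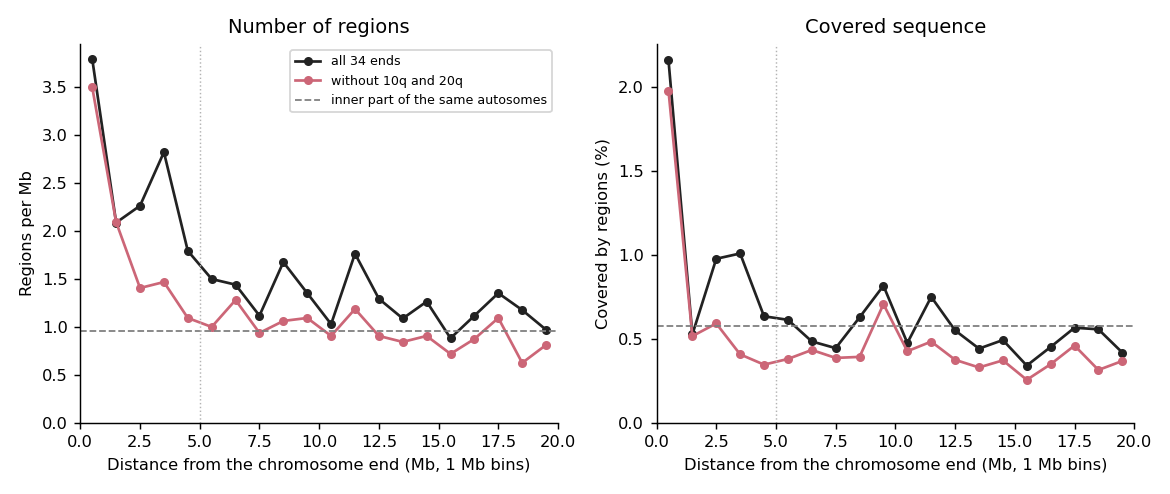
Points are regions per Mb (left) and the share of sequence covered by regions in % (right) in 1 Mb bins from the chromosome end, for all 34 ends and without 10q and 20q. The dashed line is the inner part of the same autosomes (0.96 regions per Mb, 0.58% covered) and the dotted line is the 5 Mb limit. Both measures are highest in the first bin (3.79 per Mb and 2.16%), and the second rise near 3 to 4 Mb is absent without 10q and 20q.

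The longest subtelomeric regions were on 4 ends. Of the 10 longest, 5 lay on 4q, 2 on 4p, 2 on 10q and 1 on 1p. They made up 19.6% of the subtelomeric covered length. On 4q they were 65.4 kb at chr4:190470201-190535600 (3503 counts), 56.2 kb at chr4:190538201-190594400 (2959 counts), 45.2 kb at chr4:190617601-190662800 (2147 counts), 30.4 kb at chr4:190800601-190831000 (1593 counts) and 17.4 kb at chr4:190667401-190684800 (669 counts). Together with 3 shorter neighbours they formed a cluster of 8 regions that covered 63.4% of a span of 360.8 kb. The 5 long regions had densities from 38.4 to 53.6 counts per kb. The 4q window was marked at its tip only: 19 of the 20 regions lay within 1 Mb of the end, and the last one had its midpoint just beyond (chr4:190196201-190203000, 6.8 kb, 539 counts). The adjoining 5 Mb of 4q held 1 region.

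Between those long regions and the end, 4q carried a run of short regions at even spacing. From 190988401 to 191013800, 7 regions followed each other with steps of 3.2 to 3.4 kb from start to start (mean 3.30 ± 0.11 kb, SD over 6 steps, on the 200 bp grid of the list). They measured 1.2 to 5.6 kb, held 66 to 226 counts each and had densities from 40.4 to 61.3 counts per kb (median 51.4). No other run of subtelomeric or inner regions with steps of at most 4 kb was longer than 2 regions. Only a region shorter than 4 kb can be followed by such a step, and the median inner length was 4.0 kb. Many regions could therefore not enter a run, and the comparison does not show how rare even spacing is. D4Z4 is a tandem repeat of a unit of this order of size near this end of chromosome 4. The overlap with the repeat itself was not computed, since no annotation of the build was used here, and the run was chosen for description after its values were seen. The run was followed by a region off its spacing at chr4:191015401-191018400 (3 kb, 145 counts, 48.3 counts per kb). The outermost 4q region came next at chr4:191026601-191037200 (10.6 kb, 510 counts, 48.1 counts per kb).

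The end of 10q combined such a tip with a field of ordinary regions. Its outermost regions were 27.4 kb at chr10:135476801-135504200 with 3655 counts (133.4 counts per kb) and 21.2 kb at chr10:135454601-135475800 with 1223 counts (57.7 counts per kb). Those 2 regions made up 18.4% of the length covered at 10q and 44.1% of its count. The other 53 regions were at most 9.4 kb long and had 22.3 to 45.0 counts per kb. The short arm of chromosome 4 opened with 13.4 kb at chr4:16601-30000 (662 counts, 49.4 counts per kb) and 37.2 kb at chr4:31801-69000 (2137 counts, 57.4 counts per kb). These densities are close to those of the long 4q regions, whereas the 4 regions of 4p beyond the first Mb had a median of 31.1 counts per kb. How reads that match several chromosome ends were assigned is unknown. The counts at the tips of 4p, 4q and 10q, with the evenly spaced 4q run, may therefore not be separate. This was not tested.

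Away from 4p, 4q and 10q, long regions were few. Regions of 10 kb or more numbered 13 in all windows (3.0%, 95% Wilson interval 1.76 to 5.06%), against 225 of 2272 in the inner part (9.90%, 8.74 to 11.2%). Of the 13, 10 lay on 4p, 4q and 10q, and 12 lay within 1 Mb of an end. One of the other 3 was 12.4 kb on 15q (chr15:102292601-102305000, 588 counts). Another measured 10.6 kb on 14q (chr14:107161401-107172000, 445 counts), an end known for the immunoglobulin heavy chain locus. The last measured 41.0 kb on 1p (chr1:2593201-2634200, 3713 counts), 2.61 Mb from the end. On 1p it stood between a 6.8 kb region (592 counts) and an 8.4 kb region (776 counts), all with 87.1 to 92.4 counts per kb, and these 3 held 65.5% of the count of the 1p window.

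A single region of 18p had by far the highest count. The 7.2 kb at chr18:105201-112400 held 12755 counts, which was 14.5% of the count of all subtelomeric regions on 0.40% of their length. Its 1772 counts per kb were 51.8 times the subtelomeric median and 7.23 times the next highest density. It had no neighbour: the next region of 18p lay 4.24 Mb further in, and the other 3 regions of that window had 24.4 to 32.1 counts per kb. Without the 18p window the count per kb over all subtelomeric covered sequence fell from 48.8 to 42.0. The part of collapsed repeats in the reference, and of reads that match several sites, in this count was not tested. The next highest densities were 245 counts per kb on 1q (chr1:248571201-248572600, 1.4 kb, 343 counts), 217 on 1p (chr1:724001-727200, 3.2 kb, 694 counts), 208 on 5q (chr5:180085401-180085800, 0.4 kb, 83 counts) and 198 on 5p (chr5:344601-345200, 0.6 kb, 119 counts). Of 23 subtelomeric regions with at least 100 counts per kb, spread over 17 ends, 13 were 1 kb long or shorter, and the longest was the outermost 10q region of 27.4 kb.

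By medians, the typical subtelomeric region was shorter and slightly denser than an inner one. The median length was 3.2 kb (quartiles 2.2 and 4.6) against 4.0 kb (2.8 and 5.8), and the longest was 65.4 kb against 125.8 kb. The median count was 107 (quartiles 82 and 142) against 117 (92 and 182). The median density was 34.2 counts per kb (quartiles 28.4 and 47.3) against 31.2 (27.5 and 38.8). By chromosome, the subtelomeric median length was the shorter one on 16 of 19 autosomes, equal on chromosome 20 and longer on 3 and 15. The average of the chromosome medians was 3.02 ± 0.97 kb at the ends and 4.15 ± 0.70 kb inside (SD over 19 autosomes). The median density was higher at the ends on 17 of 19 autosomes and lower on 2 and 22, with averages of 39.1 ± 8.70 and 33.9 ± 4.61 counts per kb (SD over 19 autosomes). Regions of one autosome share their libraries and their surroundings and are not replicates.

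Density varied with length. The median density was lower in each longer length class up to 10 kb in both parts and higher again in regions of 10 kb or more. Across regions of all lengths, the Spearman correlation of length with density was -0.59 at the ends (434 regions) and -0.21 inside (2272 regions). Density is divided by length, and short regions were called only at high density. The lowest density at the ends was 51 counts per kb up to 1 kb, 33 over 1 and up to 2 kb and 20.9 over 2 and up to 5 kb. Inside, these values were 48, 30 and 20.6. How much of the correlation comes from this floor was not tested. Regions no longer than 1 kb were 8.29% of the subtelomeric list (36 regions) and 3.08% of the inner list (70 regions). Their median density was 83.1 counts per kb at chromosome ends and 90.6 inside, and among regions over 2 kb and up to 5 kb it was 31.1 and 29.8. It was 28.5 and 28.7 between 5 and 10 kb, and 52.4 and 46.1 at 10 kb or more. Between regions of equal length, at 30 lengths from 0.4 to 6.8 kb with at least 5 regions in each part, the median count was higher at the ends at 19 lengths, lower at 9 and equal at 2. The median of these ratios was 1.01, with a range from 0.87 to 1.32. Only called regions enter this comparison, and both medians can lie close to the lowest counts in the list. At 2.4 kb, for example, the median was 83 counts in both parts and the lowest counts were 70 at the ends and 62 inside. The closeness of the medians therefore does not show equal enrichment.

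**Figure D4:**
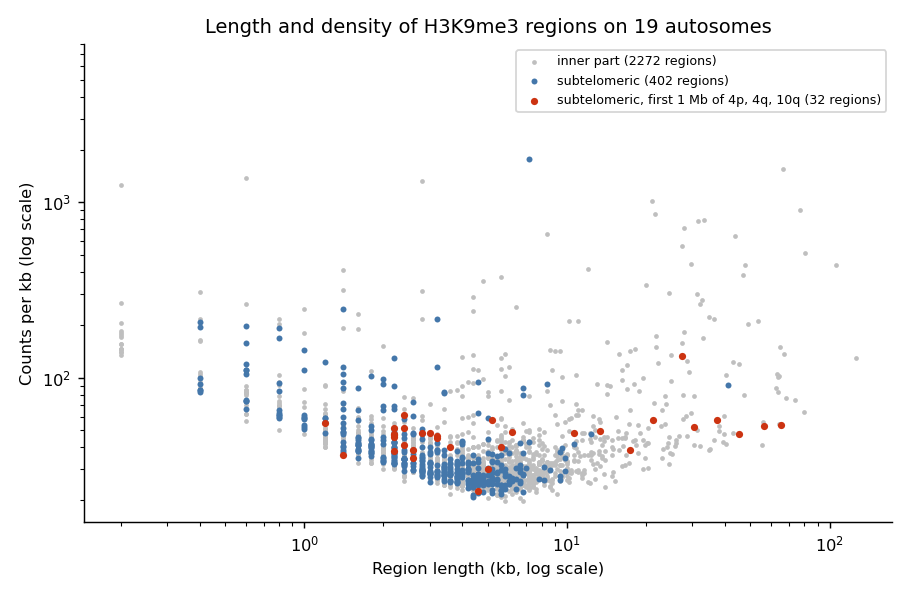
Each point is a region, with its length in kb on the horizontal and its counts per kb on the vertical axis, both on log scales, for the inner part (grey), the subtelomeric windows (blue) and the first Mb of 4p, 4q and 10q (red). Blue and grey points overlap over most lengths, the single blue point at 1772 counts per kb is the 18p region, and red points make up most subtelomeric regions of 10 kb or more.

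Regions pooled from ends with many and from ends with few also differed in kind, but single ends departed from this. At the 20 ends with 2 to 10 regions, the 119 regions had a median length of 2.2 kb and a median density of 42.0 counts per kb, and 19.3% of them were 1 kb or shorter. At the 8 ends with 12 to 17 regions the medians were 2.8 kb and 34.8 counts per kb (122 regions, 9.84% short). At the 5 ends with 20 or more they were 4.0 kb and 30 counts per kb (193 regions, 0.52% short). These pooled values lean on 20q and 10q, which supplied 128 of the 193 regions. Taken singly, 20q, 10q and 6p had 28.9, 28.8 and 29.4 counts per kb in the middle of their lists. The other ends of this group were denser: 1p had 39.4 (median length 2.9 kb) and 4q had 48.7 (4.4 kb). The 4q value exceeds the 42.0 of the ends with 2 to 10 regions. Over the 33 ends with a region, the number of regions had a Spearman correlation of 0.43 with the median length and of -0.45 with the median density. Since short called regions are dense, these correlations are not separate results. The end medians ran from 1.2 kb at 16p to 5.8 kb at 4p for length and from 28.8 counts per kb at 10q to 166 at 1q for density.

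The 20q window held many regions of modest length. Its 73 regions measured 1.4 to 9.8 kb and had 22.5 to 98.5 counts per kb, and their median density of 28.9 counts per kb was close to the 28.8 of the inner part of chromosome 20. Of these, 7 lay in the outermost Mb, with 31.7 counts per kb at the median, and 66 further in. A single cluster, joined where gaps were under 100 kb, held 43 of them (chr20:59354601-60498000) between 2.5 and 3.65 Mb from the end. The 10q window had a cluster of 20 regions (chr10:132059401-132539600) between 2.96 and 3.44 Mb from the end and a median density of 28.4 counts per kb. Between 2.5 and 3.5 Mb from the end, 20q had 37 regions and 10q had 25. The clusters next in size were 11 regions on 4q (chr4:190932401-191037200), which include the evenly spaced run, and 10 and 9 regions on 20q (chr20:58023201-58433600 and chr20:58886001-59227200). Over all ends, 287 regions (66.1%) fell into 73 clusters of at least 2 regions and 147 stood alone. Clusters of 5 or more numbered 13 on 9 ends.

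Ends differed in how far their regions were gathered near the tip. All 6 regions of 12p lay within 622.8 kb of the end, and 5 of them formed a cluster at chr12:64601-186000 with a median density of 36.1 counts per kb. At 6p, 6 of the 25 regions were clustered at chr6:286401-378200 with 29.8 counts per kb at the median, and the rest were spread over the window. At 14q, 7 of the 16 regions were clustered at chr14:106131201-106224800, with midpoints 1.08 to 1.17 Mb from the end. At 16q, by contrast, 1 of 15 regions lay in the outermost Mb, and a cluster of 6 lay at chr16:86005401-86262800. The region nearest to the end had a higher density than the subtelomeric median of 34.2 at 21 of 33 ends. Its length was above the median of 3.2 kb at 13 of them, and the medians over the 33 nearest regions were 47.7 counts per kb and 2.6 kb. All nearest regions more than 0.5 Mb from the end were above the density of 34.2 and at most 2.6 kb long. Nearest regions within 0.5 Mb lay on both sides of that density, so these values do not show higher density at the tips.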

How the data were processed

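Chromatin from BJ-HELT cells was precipitated with an H3K9me3 antibody and sequenced on SOLiD libraries, per the labels' protocols. The submitters' processing notes name Bowtie (an aligner), SICER (a caller of broad regions), hg19 and GRCh37. The sources used here do not state versions, settings, the handling of multiply matching reads or any pooling of libraries. The authors deposited 1 list of regions with a whole number each, read here as a raw count of ChIP reads, not scaled for length, depth or input. The list has the form of SICER output: all 5211 regions lay on a 200 bp grid. Library depth is unknown. Positions are counted from 1.

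Members were chosen by midpoint, and distances run from the rounded chromosome ends. Regions were named by rule: the 10 longest, the 5 with the highest count, the 5 densest, the 5 largest clusters and ends, ends without a region and regions beside the limit. Others named (the evenly spaced run on 4q, the tips of 12p, 6p, 14q and 16q, the 1p neighbours, 15q) were chosen after their values were seen. The members, lists and measures were chosen with earlier results of these data known. No test was run. Functions were tested on simulated data. No gene overlaps or sequences are given, because the tables at hand were on another build. Python 3.11.15, numpy 2.4.6, pandas 2.3.3, scipy 1.17.1 and matplotlib 3.10.9 were used.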

Additional observations from a re-analysis of the deposited data

How the results depend on the processing

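No paired analysis was possible because all libraries share 1 list, which also leaves no replicate to omit. Of 51 alternatives, 39 stayed close to the value reported (within 1.5 times for counts and rates, 1.1 times for ratios of medians and the Wilson interval for the share) and 12 moved further. Some of the 39 carry little information. Choosing members by any overlap with the window gave the same 434 regions, and the number left without a given end follows from the counts by end. None of the 34 alternatives for a ratio crossed 1. The 20 alternatives on the adjoining 5 Mb, on single ends and on equal lengths were added after the data were examined. Windows of 2 and 10 Mb held 200 and 675 regions, and 201 regions had a count at or above the list median of 112, in 35 clusters. The ratio of regions per Mb to the inner part ran from 1.8 (adjoining 5 Mb) to 2.92 (2 Mb windows). The ratio of median densities, 1.1, became 1.33 with 2 Mb windows, 1.23 without 10q and 20q and 1.01 at equal lengths. The length ratio of 0.80 became 0.70 with 2 Mb windows and without 10q and 20q, and 0.89 against the adjoining 5 Mb. The share of the 5 fullest ends, 44.5%, was 35.0% with 2 Mb windows, 54.2% for counts at or above the median and 58.7% by covered length. The cause of these shifts was not tested.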
